A study of Mus musculus with 4 samples.

Results

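NF-kappaB is a family of dimeric transcription factors and the proteins that restrain them, and 10 of its genes were followed here by their symbols among the 14082 genes listed in each library. They are the subunit genes Nfkb1, Nfkb2, Rel, Rela and Relb, the IkappaB family genes Nfkbia, Nfkbie, Nfkbiz and Bcl3, and Tnfaip3, which encodes the ubiquitin-editing protein A20. All 10 were listed and all 10 passed the filter on low counts. RNA was described by the submitters as coming from CD8+ T cells specific for ovalbumin. The cells are said to be sorted out of subcutaneous tumours of E.G7 (EL4 mouse T lymphoma cells made to express ovalbumin) grown in mice aged 6 to 10 weeks. Every host carried a floxed Smad4 gene (Smad4-fl/fl). The 2 libraries labelled WT had that allele alone, and the 2 labelled KO had Cd8-cre as well, a recombinase meant for the CD8 lineage that need not act in other cells, and the grafted tumour cells came from a separate line. Whether replicate libraries stand for different animals is not stated, and p-values therefore cover the spread between these samples alone, which may be technical.

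In resting cells NF-kappaB dimers are held in the cytoplasm by IkappaB proteins. Signals from antigen, TNF or interleukin-1 receptors activate the IkappaB kinase, the inhibitor is degraded, and dimers such as those of Rela with Nfkb1 or of Rel enter the nucleus, while a slower route processes the Nfkb2 precursor and releases dimers with Relb. Nfkbia and Tnfaip3 are classic targets of the pathway and shut it off in turn, and in T cells Rel and Rela are needed for the response to antigen.

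Summed gene counts ranged from 24366540 to 26218277 reads per library. Smad4, the gene targeted by Cre, had 752 and 736 reads in WT and 779 and 1088 reads in KO. It was not lower in KO (log2 fold change 0.19, edgeR quasi-likelihood adjusted p = 0.397), so WT and KO are used here as names of the labels. Exons that Cre leaves in place also add to its count. Markers of myeloid cells were abundant in every library: the macrophage lysozyme gene Lyz2 had 11562 to 12357 CPM (read counts divided by the TMM-scaled library size), against 455 to 472 CPM of Cd8a in WT and 239 to 248 CPM in KO. Over 11 monocyte or macrophage markers the summed level was 17456 to 18048 CPM in WT and 16962 to 17702 CPM in KO, so the groups overlapped, and 2 were lower. Most of that sum was Lyz2. The other 10 were also summed without Lyz2, a split made after the values were seen. They had 5659 and 5691 CPM in WT and 5400 and 5356 CPM in KO, with no overlap. For 6 of the 11 markers both KO libraries lay below both WT libraries, and for 1 they lay above. Among all 13358 tested genes, 4013 lay below and 3971 above in this way, or 59.8% without overlap. Groups without overlap were thus common, and whether these markers lean lower more than other genes was not tested. With library totals alone as the scaling the sums without Lyz2 overlapped, at 5503 and 5515 in WT and 5564 and 5512 in KO. Markers are counted as lower or higher here at an edgeR adjusted p under 0.05. Of all tested genes 21.2% were called, 11.0% lower and 10.1% higher, and the 18.2% of the 11 monocyte or macrophage markers was near that share. Of 8 T cell markers 5 were lower (62.5%), with sums of 2837 to 2898 CPM in WT and 1939 to 1957 CPM in KO. Of 10 neutrophil markers 9 were higher (90%), with sums of 552 to 554 CPM in WT and 1735 to 1774 CPM in KO. None of the markers in these lists was at 0 in any library, and the neutrophil marker Ly6g was below 1 CPM throughout. Among the smaller lists, 2 of 7 dendritic cell markers were higher and 1 lower, 2 of 4 tested B cell markers, 2 of 5 stromal markers and 1 of 2 markers of other T cells were higher, and neither NK cell marker passed. In bulk RNA, fewer cells of a type and less RNA per cell cannot be told apart. Lyz2 stood far above Cd8a in libraries described as sorted CD8+ T cells. Which cells the reads of a member came from therefore cannot be told, and its change cannot be assigned to T cells.

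The DNA in front of starts of these genes is shown because several of the genes are known targets of the factors they encode. The RefSeq promoter table (GRCm38.p6) held 10 windows for 7 of the genes, Nfkb2, Rel, Rela, Nfkbia, Nfkbie, Tnfaip3 and Bcl3, and the 250 bases before each start were searched on both strands. The loose kappaB pattern GGGNNNNNCC was in all 10 windows and in 45.8% of all 32851 windows of that length. The tighter pattern GGGNNTTTCC, every match of which is also a match of the loose one, was chosen after these windows had been read. It was in 5 of the 10 windows: those of Rel and Nfkbia, 1 of 2 windows of Tnfaip3 and 2 of 3 windows of Nfkb2. The windows of Rela, Nfkbie and Bcl3, the other window of Tnfaip3 and the second window of Nfkb2 did not hold it. Of all windows, 1.41% held it. Each stretch below runs 5′ to 3′ along its gene, with matches to the tighter pattern on either strand in capitals. Bases annotated as exon were left out, except for the stretches of 30 bases of Nfkb2. The stretches of Tnfaip3 and Nfkb2 lie before starts inside the annotated gene, and those of Rel and Nfkbia lie outside it.
Tnfaip3 at the first start (minus strand, chr10:19015411-19015547, the last 137 bases before the start): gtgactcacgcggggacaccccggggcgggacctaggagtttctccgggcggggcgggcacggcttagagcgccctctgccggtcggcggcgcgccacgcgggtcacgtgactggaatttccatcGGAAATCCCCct
Rel (minus strand, chr11:23770971-23771219): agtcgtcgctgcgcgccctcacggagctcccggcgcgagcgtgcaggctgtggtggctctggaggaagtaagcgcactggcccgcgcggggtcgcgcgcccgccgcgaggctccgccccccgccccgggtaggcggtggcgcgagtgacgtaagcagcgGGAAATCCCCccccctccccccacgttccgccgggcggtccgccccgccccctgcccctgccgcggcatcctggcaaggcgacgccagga
Nfkbia (minus strand, chr12:55492648-55492897): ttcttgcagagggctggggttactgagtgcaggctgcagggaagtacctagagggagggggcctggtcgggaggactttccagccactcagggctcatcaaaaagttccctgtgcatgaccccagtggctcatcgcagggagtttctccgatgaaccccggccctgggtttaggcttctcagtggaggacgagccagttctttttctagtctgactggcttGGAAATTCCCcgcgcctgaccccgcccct
Nfkb2 at the first start (plus strand, chr19:46304707-46304736): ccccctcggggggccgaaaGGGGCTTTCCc
Nfkb2 at the third start (plus strand, chr19:46305690-46305719): ccccctggtattttcGGGACTTTCCtaagc
The match began 12 bases before the first start of Tnfaip3, 91 before that of Rel, 29 before that of Nfkbia, and 11 and 225 before the first and the third start of Nfkb2. Tnfaip3 and Rel carried the same 10 letters, GGAAATCCCC, read along the gene. Of the 4 genes with a match, Tnfaip3, Rel and Nfkb2 were called lower and Nfkbia was not called, and of the 3 without one 0 were called. As the pattern was chosen on these windows, nothing is read from that count. A match is a description of letters and does not show that a factor binds.

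Of the 10 genes, 3 fell in the libraries labelled KO: Tnfaip3 by 1.61-fold, Rel by 1.29-fold and Nfkb2 by 1.24-fold. The threshold was an adjusted p of 0.05 in edgeR's quasi-likelihood test, with Benjamini-Hochberg adjustment over 13358 tested genes. The other 7, among them Nfkbia and Rela, were not called. No member was called higher, a count of 0 that DESeq2, limma-voom and edgeR's unadjusted p under 0.05 gave as well. Among all tested genes, 11.0% were called lower and 10.1% higher, 21.2% together, beside 30% of the members, all 3 of them lower. The members were chosen with earlier results of these data known, so nothing is read from that share. The median log2 fold change of the 10 was -0.09, against -0.0037 for all tested genes. Library totals alone as the scaling moved both up, to 0.0002 for the members and 0.0815 for all tested genes, so the members' median was below that of all genes under both scalings. For 4 members both KO libraries lay below both WT libraries and for 2 they lay above. That makes 6 of 10 without overlap, near the 59.8% of all tested genes whose groups did not overlap.

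**Figure D1:**
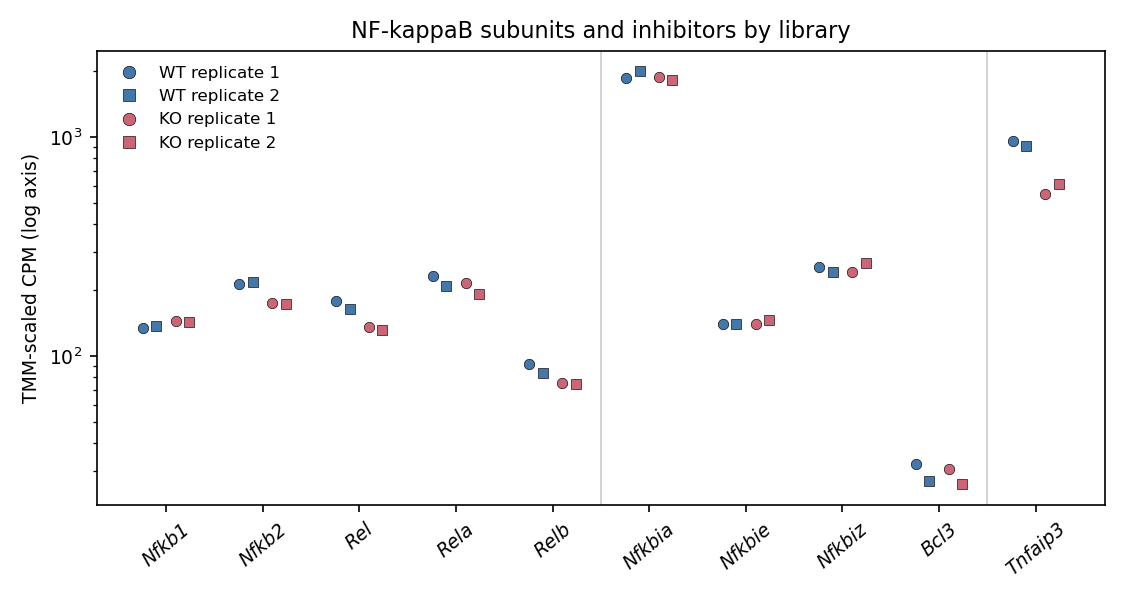
Level of each member in each of the 4 libraries, in CPM after TMM scaling on a log axis, with WT in blue, KO in red, replicate 1 as circles and replicate 2 as squares. Vertical lines part the subunits, the IkappaB family and Tnfaip3. Tnfaip3, Rel, Nfkb2 and Relb have both KO points below both WT points.

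Tnfaip3 had the largest change of the family. A20, its product, removes and remodels the ubiquitin chains that carry signals to the IkappaB kinase. Tnfaip3 had 22875 and 22778 reads in the WT libraries and 14613 and 16567 in the KO libraries, or 965 and 911 CPM against 549.6 and 614 CPM. Both KO libraries were below both WT libraries, by more than the gap within either group. Its log2 fold change was -0.69 with a standard error of 0.06, and the 95% confidence interval reached from -0.82 to -0.56 (adjusted p = 6.34e-06, edgeR). Tnfaip3 was called under each of the 11 alternatives, with log2 fold changes from -0.77 without KO replicate 2 to -0.60 with library totals alone. Tnfaip3 is a protein-coding gene on the minus strand of chromosome 10 (mm10, 19000910 to 19015657).

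Among the subunits, Rel and Nfkb2 were lower. Rel encodes c-Rel, a subunit with a transactivation domain that is most used in lymphocytes. It had 4255 and 4102 reads in WT and 3619 and 3544 in KO, or 180 and 164 CPM against 136 and 131 CPM, with no overlap. The log2 fold change of Rel was -0.36 with a standard error of 0.06 (95% interval -0.50 to -0.22, edgeR quasi-likelihood adjusted p = 0.00167). Nfkb2 encodes p100, the precursor of p52. It had 5065 and 5482 reads in WT and 4649 and 4675 in KO, or 214 and 219 CPM against 175 and 173 CPM. Again the 2 groups were apart, and the KO libraries were close together. Its log2 fold change was -0.32 with a standard error of 0.06 (95% interval -0.44 to -0.19, edgeR quasi-likelihood adjusted p = 0.00157). Under the 11 alternatives both genes remained called, with values of -0.42 to -0.28 for Rel and -0.34 to -0.23 for Nfkb2. Nfkb2 shares 531 exon bases with a long non-coding RNA gene on the opposite strand, which has no values of its own here, and 299 with Psd, also on the opposite strand. Psd itself fell by 0.69 on the log2 scale (746 and 849 reads in WT, 542 and 548 in KO, edgeR adjusted p = 0.00108). How reads in the bases shared with either gene were counted is not given in the sources used here, so the value of Nfkb2 is uncertain.

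Relb, the subunit that partners p52 in the slower route, missed the threshold. It had 92.2 and 83.6 CPM in WT and 75.6 and 74.9 CPM in KO, and the groups did not overlap. Its log2 fold change was -0.22 with a 95% interval of -0.39 to -0.06 (edgeR quasi-likelihood adjusted p = 0.0545), and over the alternatives the adjusted p ran from 0.0485, with genes under 5 CPM left out, to 0.424, without WT replicate 1. Rela encodes p65, the main transactivating subunit. It had 231 and 209 CPM in WT and 217 and 192 CPM in KO, so the groups overlapped (log2 fold change -0.11, 95% interval -0.26 to 0.05, edgeR adjusted p = 0.338). Without KO replicate 1 Rela was called lower, at -0.19 (edgeR adjusted p = 0.0455, the lowest over the alternatives, with a highest of 0.891). Nfkb1, which encodes the p105 precursor of p50, had 135 and 137 CPM in WT and 145 and 143 CPM in KO. Both KO values were above both WT values, but the difference did not pass the test (log2 fold change 0.09, 95% interval -0.04 to 0.22, edgeR adjusted p = 0.362). The precursor genes thus had estimates on opposite sides of 0, with confidence intervals that did not overlap.

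None of the 4 IkappaB family genes among the 10 was called. Nfkbia encodes IkappaBalpha, the fast-acting cytoplasmic inhibitor that is resynthesised after each signal. It had 1866 and 1999 CPM in WT and 1876 and 1818 CPM in KO. The KO libraries lay on either side of WT replicate 1. In the main fit the 95% interval of the log2 fold change was -0.18 to 0.05, with a fall of 1.13-fold at its lower end (estimate -0.06, edgeR quasi-likelihood adjusted p = 0.446). Over the 11 alternatives the estimate for Nfkbia ran from -0.12 to 0.02, so that end is no firm bound. Nfkbie, the gene of the related cytoplasmic inhibitor IkappaBepsilon, had 140.0 and 140.3 CPM in WT and 141 and 146 CPM in KO. Its KO values were above its WT values by less than the gap within the KO group (log2 fold change 0.03, 95% interval -0.10 to 0.16, edgeR adjusted p = 0.761). Nfkbiz and Bcl3 encode nuclear members of the family, IkappaBzeta and BCL-3, which bind p50 or p52 on DNA and can switch genes on. Nfkbiz had 255 and 243 CPM in WT and 242 and 268 CPM in KO, with overlapping groups (log2 fold change 0.03, 95% interval -0.10 to 0.17, edgeR adjusted p = 0.778). Bcl3 had 762 and 671 reads in WT and 813 and 701 in KO, the fewest of the family, or 32.2 and 26.8 CPM against 30.6 and 26.0 CPM. Its interval was the widest of the 10, -0.34 to 0.22 around -0.06 (edgeR adjusted p = 0.798), and replicate 1 was above replicate 2 in both groups. Bcl3 shares 161 exon bases with an antisense gene, Gm16175, which has no values of its own here.

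**Figure D2:**
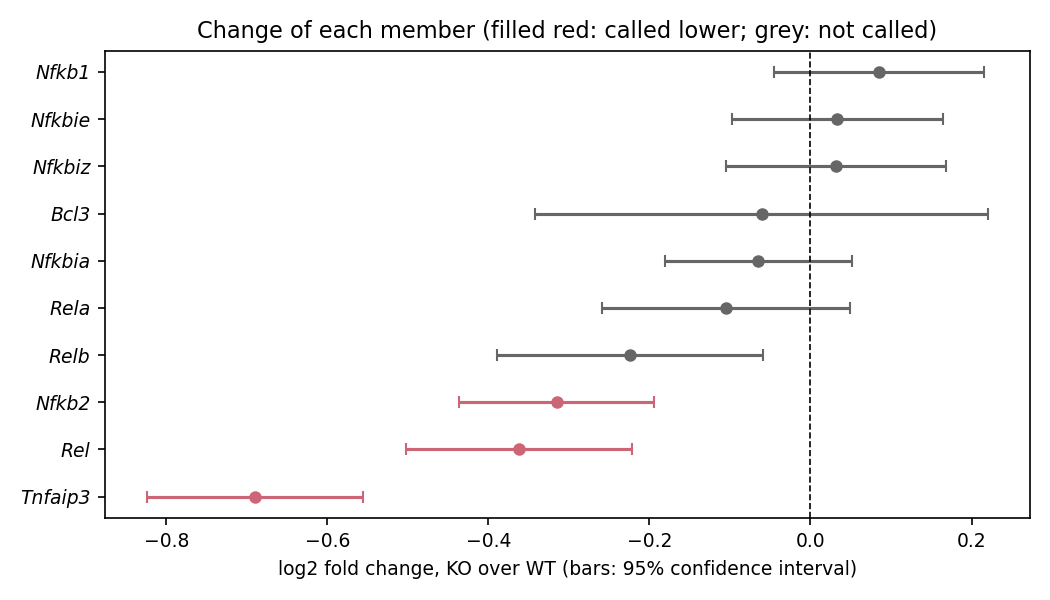
Log2 fold change of each member, KO over WT, with its 95% confidence interval derived from the F statistic of the edgeR quasi-likelihood test. Tnfaip3, Rel and Nfkb2, in red, were called lower, and the interval of Relb also lies below 0 although its adjusted p of 0.0545 missed the threshold.

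Per base of transcript, Nfkbia stood far above the rest of the family. On the deposited FPKM scale (reads scaled to exon length and to library size), its level was 1114 and 1197 in WT and 1130 and 1092 in KO, and it ranked 24th to 27th of 14082 genes in the 4 libraries. Nfkbia made up 73.2% to 77.4% of the summed FPKM of the 10 genes. Tnfaip3 came next, at 128 and 122 FPKM in WT and 73.7 and 82.1 in KO, and its rank among all genes moved from 385 and 422 to 719 and 626. Rela followed at 60.5 to 72.4 FPKM and then Nfkbiz at 46.7 to 51.6 FPKM, in that order in every library.

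The lower part of the order differed between the groups. Nfkb2 (44.8 and 46.1 FPKM) stood above Nfkbie (44.2 and 44.4 FPKM) in both WT libraries, and below it in both KO libraries, at 37.0 and 36.5 against 44.8 and 46.4 FPKM. In WT these neighbours differed by less than 2 FPKM. Likewise Rel (23.1 and 21.2 FPKM) stood above Relb (22.8 and 20.8) in WT and below it in KO, at 17.7 and 17.0 against 18.9 and 18.6 FPKM, with a gap smaller than the spread between libraries in WT and wider than it in KO. Bcl3 (10.1 to 12.5 FPKM) and Nfkb1 (10.7 to 11.7 FPKM) held the last places in an order that changed with the replicate. The FPKM of Nfkb1 rests on an exon length of 12061 bases summed over all its annotated isoforms, the longest of the family, which lowers its value if shorter isoforms are the ones expressed.

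Ratios between members within 1 library do not depend on how libraries are scaled to each other. They rest on the same reads as the fold changes above, so they restate those changes and are no separate support. Tnfaip3 stood at 0.115 and 0.102 of the FPKM of Nfkbia in WT and at 0.0653 and 0.0752 in KO, so the pair of feedback inhibitors shifted relative to each other. Nfkb2 was 4.18 and 4.21 times Nfkb1 in WT and 3.17 and 3.19 times in KO. The gap between the groups was far wider than that between replicates. Rel was 0.319 and 0.324 of Rela in WT and 0.258 and 0.281 in KO, and Relb was 0.315 and 0.317 of Rela in WT and 0.276 and 0.308 in KO. Both ratios were lower in both KO libraries, with replicate 2 close to WT for Relb. Nfkbia was 15.4 and 18.3 times Rela in WT and 16.5 and 18.04 times in KO, and these overlapped. With 2 libraries a group no permutation test of a ratio can pass 0.05, so these are given as values.

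**Figure D3:**
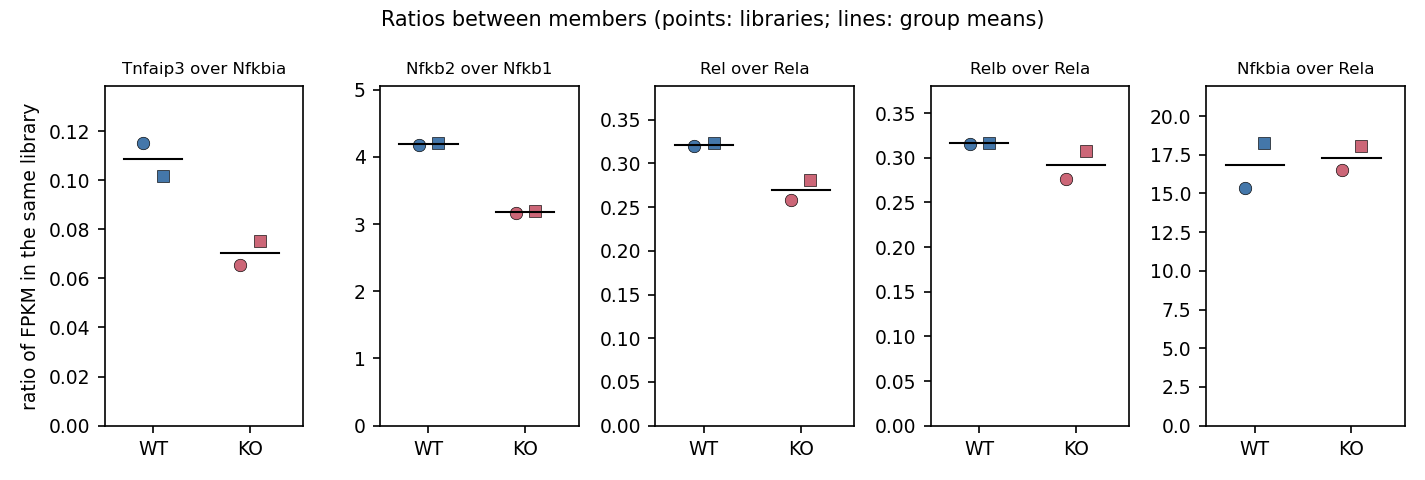
Ratio of the FPKM of 2 members within the same library, with WT in blue, KO in red, replicate 1 as circles and replicate 2 as squares, and the group mean as a line, on axes that start at 0. Tnfaip3 over Nfkbia, Nfkb2 over Nfkb1, Rel over Rela and Relb over Rela are lower in both KO libraries, while Nfkbia over Rela overlaps.

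The T cell markers were also lower in KO, by unequal amounts. Their log2 fold changes ran from -0.96 for Cd8b1 to -0.14 for Cd3d, and 3 of the 8 were not called. A sum over them gives the most abundant markers the most weight. Divided by the summed CPM of the 8 T cell markers in the same library, Tnfaip3 was 0.340 and 0.314 in WT and 0.281 and 0.317 in KO, so its groups overlapped on that scale. Rel was 0.0633 and 0.0566 in WT and 0.0696 and 0.0678 in KO, and Nfkb2 was 0.0753 and 0.0757 in WT and 0.0894 in both KO libraries. Relative to those markers, then, both KO libraries were above both WT libraries for Rel and Nfkb2, as they were for every other member except Tnfaip3. Nfkbia, for example, was 0.657 and 0.690 in WT and 0.959 and 0.938 in KO. The divisor itself fell, from 2837.3 and 2898.4 CPM in WT to 1956.5 and 1938.6 CPM in KO. Which cells its reads came from was not tested, and the grafted line is itself a T lymphoma. A gene that fell by less than the divisor comes out higher on this scale. The share of all genes that did so was not computed, so nothing particular to the members is read from it. The same libraries had higher neutrophil markers, and macrophage sums that overlapped with Lyz2 counted and, on the TMM scale, not without it. The part of these markers in the change of Tnfaip3, Rel and Nfkb2 was not tested.

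Among ligands and receptors that signal to NF-kappaB, 8 of 31 tested genes were higher and 11 lower in KO, or 61.3% called against 21.2% of all genes. This list and those below were chosen with earlier results of these data known, so nothing is read from their shares. The ligand and receptor genes moved both ways. Their median log2 fold change of 0.01 ran from -0.09, when genes under 5 CPM were left out, to 0.10 with library totals alone. The summed level of the list was 3049 to 3058 CPM in WT and 2481 to 2598 CPM in KO. Without WT replicate 1, 5 were higher. Interleukin-1 beta (Il1b), a cytokine of activated myeloid cells, was 387 and 373 CPM in WT and 642 and 676 CPM in KO, 1.73-fold higher (edgeR quasi-likelihood adjusted p = 5.66e-07). The costimulatory receptor gene Tnfrsf9 (4-1BB) was 2.34-fold lower, at 700 and 722 CPM in WT and 302 and 307 CPM in KO, and Il18rap, a chain of the interleukin-18 receptor, was 2.84-fold lower, at 159 and 151 CPM against 51.3 and 57.7 CPM. Tnfsf13b, which encodes the B cell survival factor BAFF, fell by 1.41 on the log2 scale from a low level of 10.7 and 11.0 CPM in WT to 3.61 and 4.52 CPM in KO. For Tnfrsf9, Il18rap and Tnfsf13b the edgeR adjusted p was 9.15e-09, 3.47e-08 and 0.000582. The TNF receptor gene Tnfrsf1b was lower at 229 and 305 CPM in KO than at 376 and 355 CPM in WT (edgeR adjusted p = 0.0156). Its KO libraries differed widely, and the call was lost with DESeq2 and without either WT library (adjusted p = 0.125, 0.344 and 0.309; lowest over the alternatives 2.71e-16).

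Kinases and adaptors between the receptors and IkappaB were mostly not called. Of 27 tested genes, 5 were lower, 0 higher and 22 not called (18.5%, near the 21.2% of all genes), and DESeq2, limma-voom and edgeR's unadjusted p under 0.05 also gave 0 higher. The median was -0.08, against -0.0037 for all tested genes, and with library totals alone it was 0.0049 against 0.0815. Under that scaling 2 were higher and 3 lower, and 3 were lower without WT replicate 1. The catalytic subunit gene of the IkappaB kinase with the highest reads, Ikbkb, had 124 and 119 CPM in WT and 119 and 112 CPM in KO (edgeR adjusted p = 0.468), and the adaptor gene Myd88 had 125 and 138 CPM against 117 and 127 CPM (edgeR adjusted p = 0.325). Prkcq encodes protein kinase C theta, a kinase that acts downstream of the T cell receptor. It was 2.84-fold lower, at 53.0 and 57.6 CPM in WT and 16.4 and 22.6 CPM in KO (edgeR adjusted p = 7.21e-06). Traf1, an adaptor of TNF family receptors and itself a target of the pathway, was 1.28-fold lower (278 and 271 CPM to 201 and 227 CPM), and Traf5 was 1.83-fold lower (edgeR adjusted p = 0.00165 and 0.00122). The remaining lower genes, Bcl10 and Traf6, are named because only 5 were called. Their log2 fold changes were -0.30 and -0.29 (edgeR quasi-likelihood adjusted p = 0.0204 and 0.0443).

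Beside the 10 members, 14 other inhibitors of the pathway were tested, of which 4 were lower, 0 higher and 10 not called. That is 28.6% called, beside 21.2% of all tested genes. DESeq2, limma-voom and edgeR's unadjusted p under 0.05 again gave 0 higher among these inhibitors. Their median was -0.20, and it stayed negative under each scaling, at -0.11 with library totals alone. Without WT replicate 1 there were 2 lower genes, and without KO replicate 1 there were 7. Nfkbib, which encodes the cytoplasmic inhibitor IkappaBbeta, had 174 and 184 CPM in WT and 139.2 and 139.4 CPM in KO. The fall was 1.29-fold (edgeR quasi-likelihood adjusted p = 0.000928), and it was called under each of the 11 alternatives. Relative to Nfkbia in the same library, Nfkbib was 0.0694 and 0.0684 in WT and 0.0551 and 0.0569 in KO on the FPKM scale. Zc3h12a, the gene of the RNase Regnase-1, which cleaves mRNAs of inflammatory genes, was 1.40-fold lower, and Tnip3, which encodes an A20-binding protein, was 1.29-fold lower (edgeR adjusted p = 0.0103 and 0.0120). Both calls were lost when WT replicate 1 was left out (adjusted p = 0.0845 and 0.0981 with edgeR, the highest over the alternatives, with lowest values of 2.41e-07 and 0.000209). The last of them, the deubiquitinase gene Cyld, is named because only 4 were called, with a log2 fold change of -0.31 (edgeR adjusted p = 0.0207). The most abundant of the list, Tax1bp1, had 224.3 and 223.9 CPM in WT and 209 and 219 CPM in KO (edgeR adjusted p = 0.448), and the nuclear IkappaB gene Nfkbid had 138 and 130 CPM against 137 and 149 CPM (edgeR adjusted p = 0.376).

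Textbook targets of NF-kappaB moved both ways. Of 40 tested genes, 11 were higher, 10 lower and 19 not called (52.5% called, against 21.2% of all tested genes). As this list too was chosen with earlier results known, nothing is read from that share. Il2 was listed but removed by the filter. The median was -0.05, against -0.0037 for all tested genes, and with library totals alone it was 0.04 against 0.0815. Ptgs2, which encodes the prostaglandin synthase COX-2, was 1.99-fold higher, at 130 and 143 CPM in WT and 277 and 266 CPM in KO. Csf1, the macrophage growth factor gene, was 1.87-fold higher (70.7 and 67.1 CPM to 132 and 125 CPM), and the neutrophil chemokine gene Cxcl2 was 1.34-fold higher, at 534 and 483 CPM against 611 and 752 CPM. The call of Cxcl2 was lost with DESeq2 (adjusted p = 0.0532, the highest over the alternatives, against 0.00324 with edgeR and a lowest of 3.10e-12). The chemokine genes Ccl5 and Ccl4 fell. Ccl5 had 648 and 691 CPM in WT against 196 and 197 CPM in KO, and Ccl4 had 640 and 694 CPM against 399 and 381 CPM. In edgeR the adjusted p was 2.81e-07 for Ptgs2, 1.81e-06 for Csf1, 7.32e-10 for Ccl5 and 1.21e-06 for Ccl4. Neutrophil markers were higher and T cell markers lower in the same libraries, and their part in these changes was not tested. Of the target genes, 9 stand in another of these lists as well, and 5 of the 21 calls are therefore counted in 2 lists: Il1a, Il1b and Tnf, which were higher, and Ltb and Traf1, which were lower.

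**Figure D4:**
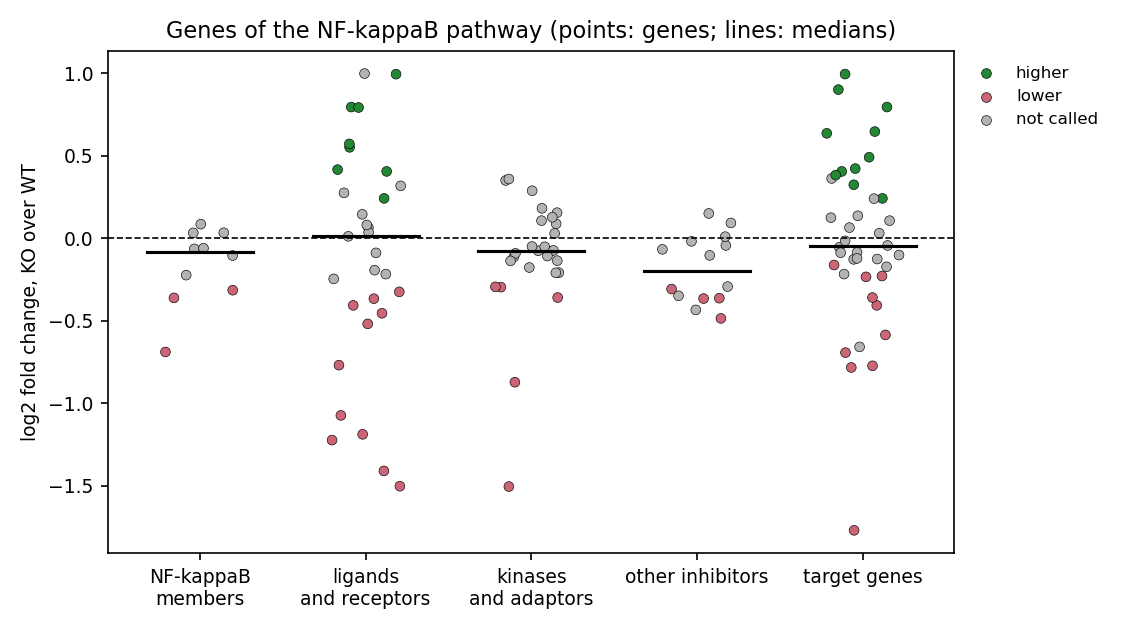
Log2 fold change, KO over WT, of the tested genes of each list, 1 point a gene, with the median as a line. Green points were called higher, red ones lower and grey ones not called; the members, kinases and adaptors and other inhibitors have no green point, while ligands and receptors and target genes have points of both colours.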

How the data were processed

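Counts of reads per gene were deposited for 4 libraries, as whole numbers per the file headers and the values. The FPKM were deposited too, per the file headers. For all 10 members they equalled count over exon length in GENCODE M21 (GRCm38, called mm10) with 1 factor a library, and positions are from M21. The tools in the submitters' processing notes are featureCounts, Bowtie2, Trim Galore 0.4.4, DESeq2 and edgeR, with the build mm10 and no roles. Neither strandedness nor annotation is given in the sources used here.

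Counts of 13358 genes, after filterByExpr (count minimum 10, total minimum 15) had removed 724, went into the quasi-likelihood test of edgeR 4.0.16 (R 4.3.3, TMM, robust glmQLFit and glmQLFTest), with Benjamini-Hochberg adjustment over all tested genes and calls under 0.05. CPM are TMM scaled. The step was also run on simulated data in which all genes had the same setting for the spread between libraries. That run does not cover genes of wider spread. Replicates differed by more than counting noise (chi-square per degree of freedom 7.74 in WT, 10.0 in KO), and low counts widen errors. Alternatives were RLE factors, library totals alone, other filters, DESeq2 1.42.0, limma-voom (limma 3.58.1), the replicate number as a block, and leaving out each library. All members were named, and of each other list the 3 genes of highest mean CPM and the 3 called genes of largest change among those with at least 5 CPM and no overlap. Members and lists were chosen with earlier results of these data known.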

Additional observations from a re-analysis of the deposited data

How the results depend on the processing

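The counts of NF-kappaB members held within 1.5 times under all 11 alternatives: 0 were higher, and 3 were lower except for 4 with genes under 5 CPM left out (Relb added) and 4 without KO replicate 1 (Rela added). Of 110 member values under alternatives, 103 kept their direction and side of the threshold, 2 newly passed it and 5 reversed, all of uncalled genes. Library totals alone moved the median of all tested genes from -0.0037 to 0.0815, so sign changes of genes near 0 under it follow from the scaling. The reversals were Nfkbia at 0.021 and Bcl3 at 0.024 with library totals alone. Leaving out 1 library, Bcl3 ranged from -0.183 to 0.072, the highest without WT replicate 1 (0.051 without KO replicate 2), and Nfkbiz from -0.045 without KO replicate 2 to 0.104. Of other named genes, Ikbkb turned to 0.0089 and Tax1bp1 to 0.018 with library totals alone. That scaling gave 2105 higher genes in place of 1354, and 2 higher and 3 lower kinases and adaptors in place of 0 and 5. Leaving out 1 library gave 714 to 1605 higher and 831 to 1787 lower genes (main 1472), the lowest without WT replicate 1. It gave 5 to 8 higher ligands and receptors, 0 to 2 higher and 3 to 5 lower kinases and adaptors, and 2 to 7 lower other inhibitors. The cause was not tested. Deviations of same-numbered libraries had a correlation of -0.04 over genes. With a single difference per group, this cannot decide whether the replicate numbers pair the samples. With the replicate number as a block, 1393 genes were higher and 1522 lower, and 3 members were lower. Bcl3, with the fewest reads, had the widest interval.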
